A study of Mus musculus with 4 samples.

Results

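RAD21 binding sites at GC-rich promoters were the summits of the deposited RAD21 site lists that lay on an autosome, within 1 kb of the transcription start of a protein-coding transcript, and in sequence of at least 55% GC within 250 bp on either side of the summit. Of 18691 autosomal sites listed in either cell type, 167 met this rule. An embryoid body summit within 250 bp of an embryonic stem cell summit was counted once, at the stem cell summit. The other sites were 749 at promoters of lower GC content, called GC-poor promoter sites here, and 17775 further than 1 kb from any such start, called distal sites.

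The libraries came from ChIP-seq, in which crosslinked chromatin is precipitated with an antibody and its DNA sequenced. The ESCs were undifferentiated R1/E mouse embryonic stem cells kept with LIF (differentiation day 0), and the EBs were embryoid bodies, mixed aggregates of differentiating cells, made from the same line by the hanging drop method (day 12). All the cells carried, beside their own Rad21 gene, a bacterial artificial chromosome with Rad21 fused to a GFP-containing tag, in resistant cells sorted for GFP, so the tagged copy was additional to the endogenous protein, and it was precipitated with a goat antibody against GFP. No expression was measured in these libraries, so the cell types could not be checked by markers. The control of each cell type was labelled as a goat IgG precipitation of the same line, although its description calls it input DNA. There was 1 library per group and no replicate, so differences are between libraries, no test across cell types was possible, and all intervals given are 95% intervals that cover counting error only.

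Cohesin is a ring-shaped protein complex, of which RAD21 is the subunit that closes the ring. It holds sister chromatids together and shapes chromatin loops, and it collects at many sites bound by the zinc finger protein CTCF. Promoters rich in G and C often lie in CpG islands, stretches that kept their CG dinucleotides and that serve as starts of housekeeping and developmental genes. Cohesin has also been found at active promoters and enhancers without CTCF, together with Mediator and sequence-specific transcription factors.

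The libraries held 13714772 autosomal reads for RAD21 in ESCs and 7740389 in EBs, and 12602155 and 6929293 for the IgG libraries. Reads were placed at the centre of their fragment, counted within 250 bp of each summit and scaled to 1000000 autosomal reads (RPM). At this depth a count of 0 allows up to 3 reads, which is 0.388 RPM in the EB RAD21 library. A typical GC-rich promoter site had 19 RAD21 reads in ESCs and 8 in EBs (medians), and 2 and 1 IgG reads, so single sites are known imprecisely and groups of sites are given as summed reads.

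The sequence beneath the sites shows what they were made of. CTCF binds a long motif, and the best match within 150 bp of the summit was sought with a weight matrix of 20 bases learned from RAD21 summits of other chromosomes. The following matches passed a threshold that 1e-05 of genome positions pass. Those of Acbd4 and Ccdc110 belonged to the sites with the most ESC reads, and those of Lingo1, Hsd3b7, Ramp1 and 4632415L05Rik were the highest-scoring matches, chosen for their score. They are written 5′ to 3′ on the strand of the motif, on mm9, with the 12-base core in capitals.
Acbd4 (chr11:102964125-102964144, plus strand): gtttCCACCAGGGGGCgcga
Ccdc110 (chr8:47020301-47020320, minus strand): gtggCCACCAGAGGGCgcgc
Lingo1 (chr9:56484296-56484315, plus strand): gtgaCCAGCAGAGGGCagta
Hsd3b7 (chr7:134944018-134944037, plus strand): ctggCCACCAGGGGGCactc
Ramp1 (chr1:93075785-93075804, plus strand): ttggCCAGAAGGTGGCagca
4632415L05Rik (chr3:19794798-19794817, minus strand): aaggCCAGCAGAGGGCggca

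Most GC-rich promoter sites held no match of this strength, and the next stretches show the summit with 50 bases on either side, for sites whose values are given further on. They were read from the plus strand of mm9 and overlap no annotated exon. Capitals mark the best motif match where it passed a looser threshold, that of 1e-04 of genome positions (in Ndufv1 the match runs past the last base shown). Ankrd39, Tmem211 and Sp2 were among the sites with the most EB reads, Ndufv1 was listed in EBs alone, and Ccdc88c, Slc2a1 and Atp6v0d1 held no match at either threshold.
Ankrd39 (chr1:36604220-36604320): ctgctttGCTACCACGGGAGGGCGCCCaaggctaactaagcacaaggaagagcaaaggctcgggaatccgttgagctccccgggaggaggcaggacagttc
Tmem211 (chr5:113655752-113655852): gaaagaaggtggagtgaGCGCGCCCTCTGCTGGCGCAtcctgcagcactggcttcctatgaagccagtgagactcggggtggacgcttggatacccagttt
Sp2 (chr11:96843881-96843981): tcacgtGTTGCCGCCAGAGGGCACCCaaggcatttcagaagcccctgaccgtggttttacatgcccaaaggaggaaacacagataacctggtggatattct
Ndufv1 (chr19:4012835-4012935): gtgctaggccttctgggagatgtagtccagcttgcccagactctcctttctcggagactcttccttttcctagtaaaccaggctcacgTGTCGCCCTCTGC
Ccdc88c (chr12:102267714-102267814): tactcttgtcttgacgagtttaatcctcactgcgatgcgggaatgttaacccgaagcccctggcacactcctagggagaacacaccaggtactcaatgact
Slc2a1 (chr4:118781116-118781216): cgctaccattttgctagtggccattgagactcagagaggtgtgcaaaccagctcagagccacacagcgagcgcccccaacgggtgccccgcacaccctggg
Atp6v0d1 (chr8:108090107-108090207): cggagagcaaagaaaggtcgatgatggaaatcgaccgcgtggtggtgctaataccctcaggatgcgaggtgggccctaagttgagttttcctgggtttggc

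RAD21 summits in GC-rich sequence were found at few of the GC-rich promoters. Of 13535 autosomal protein-coding genes with a start of at least 55% GC, 166 had a summit of at least 55% GC within 1 kb of a start (1.23%, 1.05 to 1.43). Counting summits of any GC content, 1008 of 25906 starts of at least 55% GC had one within 1 kb (3.89%, 3.66 to 4.13). The sites themselves lay near the lower end of the GC range. Their GC content was between 55.1% and 73.0% with a median of 57.1%, while 12805 GC-rich promoters without any RAD21 site, taken at 1 start per gene, had a median of 63.9%. In 119 of 167 cases (71.3%, 63.8 to 78.0) the window of the same length at the nearest start held more G and C than the one at the summit, and the median was 61.9% at the start. The ratio of observed to expected CG dinucleotides, which is at least 0.6 in a CpG island by the common definition, reached that value at 78 of 167 summits (46.7%, 39.0 to 54.6) and at 67 of 625 distal sites of at least 55% GC (10.7%, 8.41 to 13.4). At the nearest starts of the 167 summits it was reached in 62.9% of cases (55.1 to 70.2), and at the starts of GC-rich promoters without a site in 77.7%. Within the narrower range of 55 to 60% GC the shares were 39.8% of 133 summits (31.5 to 48.7) and 48.2% of 3674 promoters without a site (46.6 to 49.8), whose intervals overlapped.

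The number of reads at a start without a site varied with its GC content in all 4 libraries. For this each gene was taken at its most upstream start, which left 11775 starts of at least 55% GC. Starts of 55 to 60% GC held 0.222 RPM in the ESC RAD21 library, 0.220 in the EB RAD21 library, 0.151 in the ESC IgG library and 0.119 in the EB IgG library on average. Starts of at least 70% GC held 0.0593, 0.0417, 0.0308 and 0.0212 RPM. RAD21 reads exceeded IgG reads at GC-rich starts even where no site was listed. The ratio of their RPM was 1.60 (1.57 to 1.63) in ESCs and 1.97 (1.91 to 2.03) in EBs over these 11775 starts, against 0.898 (0.865 to 0.933) and 0.872 (0.832 to 0.915) at starts under 40% GC. A RAD21 site of any GC content lay within 1 kb of 3.06% (2.64 to 3.52) of 6147 starts of at least 70% GC, counting all starts, and of 3.78% (3.34 to 4.25) of 6940 starts of 55 to 60% GC. The share was highest at 60 to 65% GC, 5.05% (4.54 to 5.59), and was 3.55% at 65 to 70%. Below 55% GC it was 3.77% at 50 to 55%, 2.78% at 45 to 50%, 2.09% at 40 to 45% and 0.881% under 40%.

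**Figure D1:**
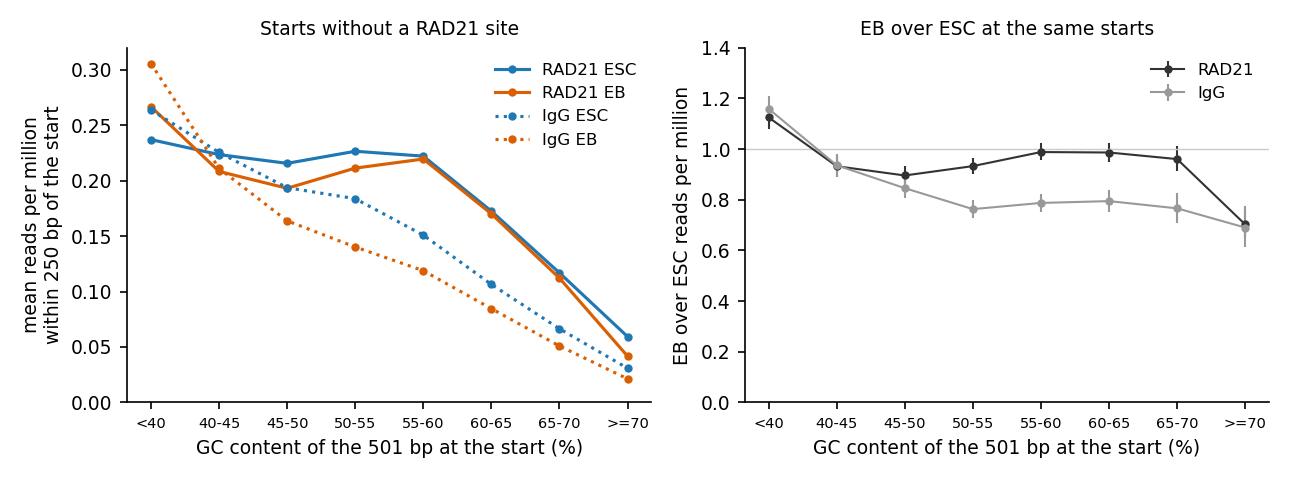
Mean RPM within 250 bp of protein-coding starts without a RAD21 site (left, y axis) and the ratio of EB to ESC RPM at these starts (right, y axis), against the GC content around the start (x axis, %), at 1 start per gene. Bars on the right are 95% intervals of the ratio of counts; RPM is lower at high GC in all 4 libraries, and the IgG ratio was 0.787 at 55 to 60% GC while the RAD21 ratio was 0.988.

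The summits lay mostly just upstream of the gene. Of 167 summits, 127 (76.0%, 68.8 to 82.3) were upstream of the nearest protein-coding start, and the median position relative to the start was -137 bp (-165 to -108 bp). Within the 250 bp directly upstream lay 78 summits (46.7%, 39.0 to 54.6), against 156 of 749 GC-poor promoter sites (20.8%, 17.97 to 23.9). The rule allowed 1 kb on either side and asked for high GC at the summit, which itself favours places close to a start. By annotation, 89 summits were intergenic, 37 intronic, 18 in a UTR, 12 in a coding exon and 11 in another exon. At 8 of 167 nearest starts (4.79%, 2.09 to 9.22) another gene began within 1 kb in the opposite direction upstream, an arrangement seen at 12.5% (11.9 to 13.1) of GC-rich promoters without a site and at 10.9% (9.90 to 11.9) of those of 55 to 60% GC. One such pair was Parp3, a poly(ADP-ribose) polymerase gene, with Rrp9, a gene for a component of the ribosomal RNA processing machinery.

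**Figure D2:**
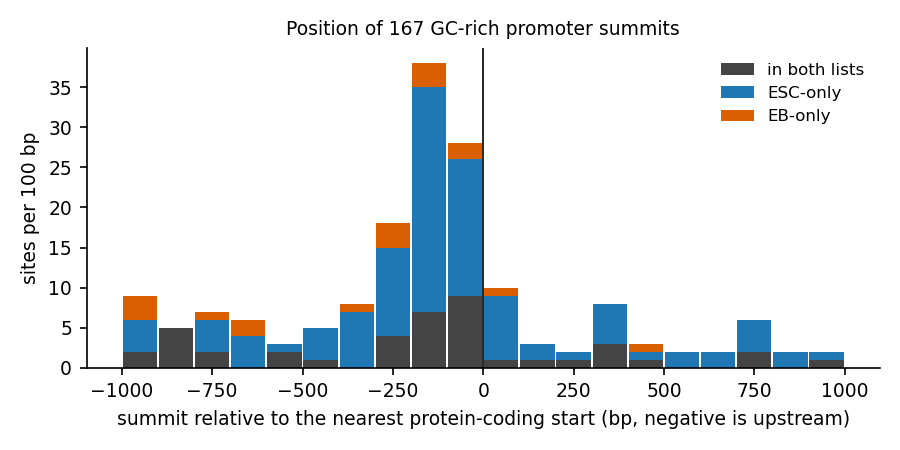
Number of GC-rich promoter sites per 100 bp (y axis) by distance of the summit to the nearest protein-coding start in the direction of transcription (x axis, bp), coloured by the list or lists that hold the site. The tallest bars stand just upstream of the start, and 76.0% of all summits are upstream.

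RAD21 reads were concentrated at the summit in both cell types, 150 of the 167 profiles being centred on the ESC summit. Averaged over the 167 sites, RAD21 reached 0.295 RPM per 50 bp bin at the summit in ESCs and 0.248 in EBs, while the bins at least 1500 bp away averaged 0.0243 and 0.0257. Aligned by the nearest start, the highest bin was at -75 bp in both RAD21 libraries. In the IgG libraries the highest bin lay over 1 kb from both points. The IgG bin at -75 bp from the summit was close to it, with 0.0242 against 0.0257 in ESCs and 0.0268 against 0.0277 in EBs. At promoters without a site all 4 libraries had their lowest bin 225 bp downstream of the start, to 0.00994 RPM per bin for RAD21 in ESCs and 0.00657 for IgG in ESCs.

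**Figure D3:**
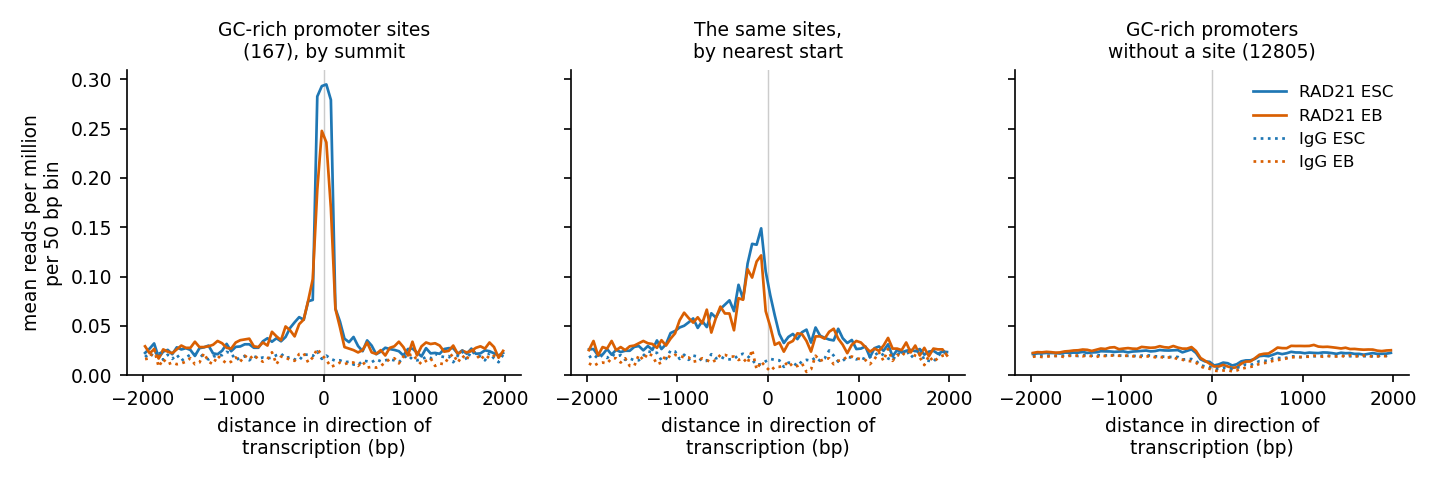
Mean RPM in 50 bp bins (y axis) around the summits of the 167 GC-rich promoter sites, around their nearest starts, and around the starts of 12805 GC-rich promoters without a site (x axis, bp in the direction of transcription), for the RAD21 (solid) and IgG (dotted) libraries of ESCs and EBs. RAD21 peaks upstream of the start in both cell types, at -75 bp, and all 4 libraries dip downstream of starts without a site.

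GC-rich promoter sites were listed mainly in ESCs. Of the 167 sites, 42 were listed in both cell types (25.1%, 18.8 to 32.4), 108 in ESCs only (64.7%, 56.9 to 71.9) and 17 in EBs only (10.2%, 6.04 to 15.8). Over all 18691 sites these shares were 38.4%, 42.3% and 19.3%. Among GC-poor promoter sites the order was the opposite, with 30.2% in ESCs only and 38.6% in EBs only (35.1 to 42.2). Read from the ESC list, 28.0% of 150 GC-rich promoter sites (21.0 to 35.9) were also listed in EBs, against 50.9% (46.2 to 55.5) at GC-poor promoters and 47.7% (46.8 to 48.5) at distal sites. Read from the EB list, 71.2% of 59 sites (57.9 to 82.2) were also in the ESC list, an interval that included the 66.5% of all sites and the 67.6% of distal sites but not the 44.7% of GC-poor promoter sites. Of 588 ESC sites at distal sequence of at least 55% GC, 30.6% (26.9 to 34.5) were also listed in EBs. Of 217 EB sites at such sequence, 82.95% (77.3 to 87.7) were also in the ESC list. That value lay just above the interval of the GC-rich promoter sites, although the intervals overlapped. The EB RAD21 library was the shallower of the pair for every group of sites, and the part of depth in these shares was not tested.

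The share was higher among stronger ESC sites. The deposited score of a site is minus 10 times the log10 of its p-value. Among ESC sites with a score from 50 to 70, 11.8% of 51 GC-rich promoter sites (4.44 to 23.9) were also in the EB list, and for scores from 70 to 100 it was 19.6% of 46 (9.36 to 33.9) and for scores of 100 and over 50.9% of 53 (36.8 to 64.9). GC-poor promoter sites had 30.6%, 44.8% and 70.7% in these bands, and distal sites of at least 55% GC had 13.0%, 21.2% and 48.1%. In each band the interval of the GC-rich promoter sites contained the value of the GC-rich distal sites. Against GC-poor promoter sites the intervals were apart in the middle band, where that of the GC-poor sites began at 35.9%, and overlapped at their ends in the other bands.

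**Figure D4:**
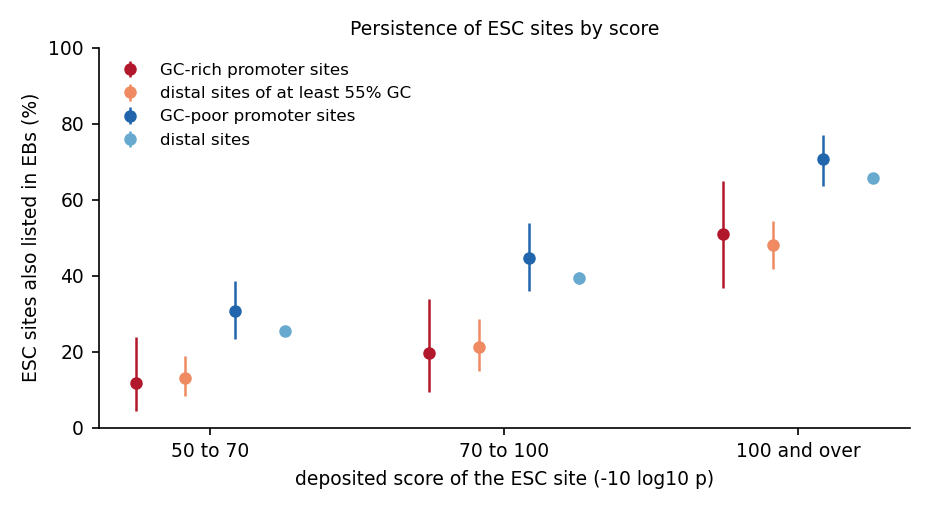
Share of ESC sites also listed in EBs (y axis, %) in 3 bands of the deposited ESC score (x axis, minus 10 times log10 p), for 4 groups of sites; bars are exact 95% intervals. GC-rich promoter sites (11.8%, 19.6% and 50.9%) and distal sites of at least 55% GC (13.0%, 21.2% and 48.1%) lie below GC-poor promoter sites and all distal sites in each band.

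The summed reads gave the size of the difference. Over the 167 sites EBs had 1.22 RPM of RAD21 per site and ESCs 1.52, a ratio of 0.802 (0.755 to 0.852), with an IgG ratio of 0.879 (0.733 to 1.05). Chromosomes 6, 8 and 11 held 60 of these sites, with a ratio of 0.721 (0.651 to 0.797) and an IgG ratio of 0.786 (0.585 to 1.05). On the other autosomes they were 0.852 (0.791 to 0.919) and 0.946 (0.749 to 1.19). At GC-poor promoter sites the RAD21 ratio was 1.37 (1.33 to 1.404) and at distal sites 1.08 (1.07 to 1.08). At distal sites of at least 55% GC it was 0.664 (0.643 to 0.684), with an IgG ratio of 0.691 (0.626 to 0.762). The RAD21 ratio was thus lower at GC-rich sites both at promoters and away from them. The IgG ratio was lower with higher GC content too, at distal sites and at starts without a site, but not across the GC classes of the promoter sites themselves, whose values follow.

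Sites listed in both cell types were nearly even. Their summed RAD21 ratio of EBs to ESCs was 1.10 (1.00 to 1.21) and their median log2 ratio was 0.22 (0.02 to 0.41), while distal sites listed in both had a summed ratio of 1.32 (1.31 to 1.33) and a median log2 ratio of 0.39. Distal sites of at least 55% GC listed in both had 0.927 (0.886 to 0.970) and a median log2 ratio of -0.08 (-0.17 to 0.03), below the promoter sites' summed ratio. The libraries were also scaled so that distal sites of any GC content listed in both had a median of 0. The median of the promoter sites listed in both was then -0.17 on the log2 scale. It was -0.22 when the IgG ratio was divided out instead, so its sign depended on the reference. The 40 promoter sites just above the limit that were listed in ESCs only, at 55 to 57% GC, stood beside 29 listed in both. Just under the limit, at 53 to 55% GC, 33 of 81 promoter sites were in ESCs only and 35 in both. The summed ratio was 0.891 (0.821 to 0.967) at 55 to 57% GC, 0.725 (0.647 to 0.811) at 57 to 60%, 0.693 (0.599 to 0.801) at 60% and over, and 0.992 (0.917 to 1.07) just under the limit. The IgG ratio in these classes was 0.801 (0.617 to 1.03), 0.961 (0.7004 to 1.31), 0.972 (0.607 to 1.53) and 0.985 (0.785 to 1.23), intervals that all overlapped.

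At sites of the ESC list alone RAD21 reads were lower in EBs but mostly above those at GC-rich promoters without a site. These 108 sites had a summed ratio of EBs to ESCs of 0.537 (0.491 to 0.587) and a median log2 ratio of -0.76 (-0.91 to -0.59), a direction that their choice by the ESC list favours. In EBs they still held 5.203 times as much RAD21 as IgG in RPM (4.25 to 6.42), against 1.97 at GC-rich starts without a site, 3.07 (3.00 to 3.13) at distal sites listed in ESCs only and 5.82 (5.19 to 6.55) at those of them with at least 55% GC, an interval that overlapped that of the promoter sites. Of the 108 sites, 76 (70.4%, 60.8 to 78.8) had more than 4 EB RAD21 reads, a number that 3.87% of GC-rich promoters without a site exceeded. Those promoters were chosen for having no site in either list, so their low counts were partly set by that choice. They were also counted at the start, where reads of all libraries dip, and the sites at the summit. For the IgG library of EBs the corresponding limit was 2 reads, which 10 of the 108 sites (9.26%, 4.53 to 16.4) and 3.27% of the promoters (2.97 to 3.60) exceeded, so the control was also higher at these sites. Among sites and promoters of 55 to 60% GC only, 54 of 82 sites exceeded the EB RAD21 limit of 5 reads, as did 4.52% of the promoters. Of the 17 sites listed in EBs only, 16 exceeded the ESC limit of 6 reads, and among those of 55 to 60% GC 9 of 13 (69.2%, 38.6 to 90.9) exceeded the limit of 7 reads there. For all 17 the summed ratio of EBs to ESCs was 2.04 (1.67 to 2.50).

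By a fixed fold of 2 in RPM, with 1 read added to each count, 38 of 167 sites (22.8%, 16.6 to 29.9) were lower in EBs, against a background of 23.2% of all 18691 sites. Only 8 (4.79%, 2.09 to 9.22) were higher in EBs, against a background of 19.7%. With this scaling the interval of the lower share included the background and that of the higher share lay below it. With the libraries scaled to distal sites listed in both, 65 of the 167 sites were lower and 4 higher. The shares of all sites were not computed under that scaling, so these counts cannot be set against the backgrounds above. Of the 38 lower sites, 37 were listed in ESCs only and 1 in both, and all 8 higher sites were listed in EBs only. By listing, 150 of the 167 sites were called on ESC RAD21 against the same IgG reads, and 10.2% were listed in EBs only against 19.3% of all sites, so the next ESC count was largely set by the choice of sites. RAD21 exceeded IgG at least 2-fold at 167 of 167 sites in ESCs, against 91.9% of all sites, and at 146 of 167 in EBs, against 81.7% of all sites. At the sites listed in ESCs only, 87 of 108 exceeded EB IgG at least 2-fold, and the share among all sites listed in ESCs only was 57%.

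**Figure D5:**
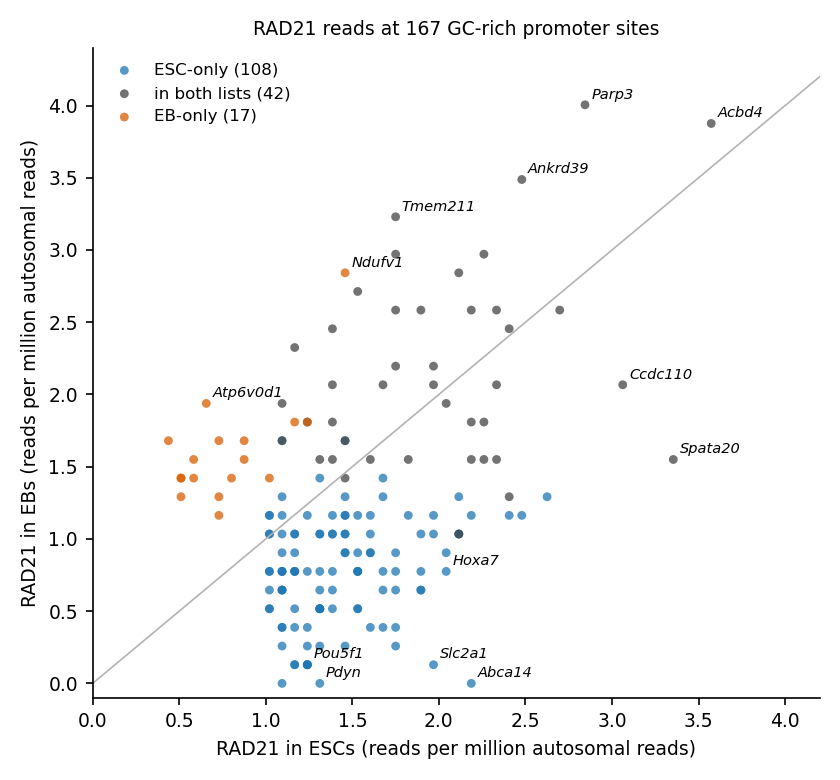
RAD21 RPM in EBs (y axis) against ESCs (x axis) at each of the 167 GC-rich promoter sites, coloured by the list or lists that hold the site, with named genes and a line of equal values. Parp3 and Acbd4 are the highest in EBs, and Abca14, Slc2a1, Pdyn and Pou5f1 lie at or near 0 in EBs.

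The sites with the most RAD21 in ESCs were those of Acbd4, Spata20, Ccdc110, Parp3 and Ccdc88c. Acbd4, which encodes an acyl-CoA binding protein, had 49 RAD21 reads in ESCs (3.57 RPM), 30 in EBs (3.88 RPM), 10 IgG reads in ESCs and 2 in EBs. Its summit lay at -224 bp from the nearest protein-coding start, in an annotated UTR, and 31.5 bp to the 3′ side of the motif shown above. Spata20, named for its expression in testis, had 46 reads in ESCs (3.35 RPM) and 12 in EBs (1.55 RPM), with 3 and 1 IgG reads, a ratio of EBs to ESCs of 0.462 (0.223 to 0.887). It was the only one of the 5 whose interval excluded 1. Ccdc110 had 42 and 16 reads with 2 and 0 IgG reads, and Ccdc88c, which encodes a regulator of Wnt signalling, had 37 and 20 with 1 and 0.

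In EBs the highest sites were those of Parp3, Acbd4, Ankrd39, Tmem211 and Sp2, all listed in both cell types. Parp3 had 39 reads in ESCs (2.84 RPM) and 31 in EBs (4.005 RPM), with 3 and 4 IgG reads, at a summit at -30 bp from the start, in an annotated intron. Ankrd39 had 34 and 27 reads, at 60.3% GC, with 2 and 1 IgG reads. Tmem211 had 24 and 25 reads with 1 and 2 IgG reads, a ratio of 1.85 (1.01 to 3.38), and Sp2, a gene for a zinc finger factor of the Sp family, had 24 and 23 reads with 5 and 1. Their intervals of the ratio included 1 except that of Tmem211.

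The sites with the highest lower limit of the ratio of ESCs to EBs were those of Abca14, Slc2a1, Pdyn, Gpha2 and Pipox, none of them listed in EBs. Abca14, an ATP-binding cassette transporter gene, had 30 reads in ESCs (2.19 RPM) and 0 in EBs, with 2 and 1 IgG reads. Against the limit of 3 EB reads, with the ESC count taken as exact, this was 5.64-fold lower in EBs. The exact lower limit, which counts the error of both, was 4.31-fold. Slc2a1, which encodes the glucose transporter GLUT1, had 27 and 1 reads with 2 and 3 IgG reads, a ratio of EBs to ESCs of 0.0656 (0.00160 to 0.398), and its summit lay at -150 bp from the start. Pdyn, the prodynorphin gene, had 18 and 0 reads and Gpha2, a glycoprotein hormone subunit gene, 15 and 0. They were 3.39-fold and 2.82-fold lower against the limit of 3 EB reads, with exact lower limits of 2.48-fold and 2.02-fold. Pipox, which encodes a peroxisomal oxidase, had 24 and 2 reads, a ratio of 0.148 (0.0169 to 0.595).

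In the other direction the highest lower limits were smaller. Gm12824 had 6 reads in ESCs and 13 in EBs, with 0 and 1 IgG reads, a ratio of 3.84 (1.36 to 12.3). Atp6v0d1, a subunit gene of the proton pump of lysosomes, had 9 and 15 with 1 and 3 IgG reads, a ratio of 2.95 (1.21 to 7.65). Ndufv1, a subunit gene of respiratory complex I, had 20 and 22 reads (1.46 and 2.84 RPM) with 8 and 3 IgG reads, a ratio of 1.95 (1.01 to 3.76). Stim1, the calcium sensor of the endoplasmic reticulum, had 8 and 12 reads, a ratio of 2.66 (0.999 to 7.50), so its interval included 1. In all, 4 intervals lay above 1 and 23 below it, without adjustment for the 167 sites. The share of all sites by this rule was not computed. Of the 167 sites, 150 were in the ESC list, a choice that favours the lower direction.

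Pluripotency and Hox genes gave 3 sites. Of 24 pluripotency genes with a GC-rich promoter only 1 had a GC-rich promoter site (4.17%, 0.105 to 21.1), against 1.23% of all GC-rich genes. This was the site of Pou5f1, which encodes OCT4. It was in a coding exon (chr17:35645980-35646948, summit at 35646368) and was listed in ESCs only. The summit lay 38 bp downstream of the nearest start of a protein-coding transcript, which need not be the most upstream start of the gene. It is therefore not shown to lie at the main promoter. It held 17 RAD21 reads in ESCs (1.24 RPM) and 1 in EBs (0.129 RPM), a ratio of 0.104 (0.00249 to 0.665), with 5 IgG reads in ESCs and 1 in EBs. Of 25 Hox genes with a GC-rich promoter 2 had a GC-rich promoter site (8%, 0.984 to 26.0). The intervals of both lists included the share of all GC-rich genes. Summits of lower GC content at the genes of these lists were not counted. Hoxa7 had 28 and 6 reads with 4 and 0 IgG reads, a ratio of 0.380 (0.129 to 0.935), and Hoxc10 had 25 and 9 reads with 0 and 1, a ratio of 0.638 (0.262 to 1.41).

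Solute carriers gave the most GC-rich promoter sites of any list. The interval of their share, 2.42% (0.893 to 5.19), included the 1.23% of all GC-rich genes. There were 6 sites among 248 genes. Besides Slc2a1, these were Slc2a4, which encodes the insulin-responsive glucose transporter GLUT4, with 32 reads in ESCs and 20 in EBs and 4 IgG reads in each, Slc38a8 with 20 and 9, Slc25a45 with 19 and 14, Slc13a5 with 16 and 6, and Slc39a13 with 10 and 13. Slc2a4 and Slc25a45 were listed in both cell types and Slc39a13 in EBs only. The GC-rich promoters of 19 cohesin and CTCF genes, 38 cell cycle and replication genes and 37 RNA processing genes held no GC-rich promoter site. Nor did those of 49 signalling genes, 76 ribosomal protein genes, 59 mitochondrial ribosomal protein genes, 25 histone genes and 213 Zfp zinc finger genes. For the Zfp genes the exact interval reached up to 1.72%, and for the ribosomal protein genes up to 4.74%, so none of these lists could be told from 1.23%. Summits of lower GC content within 1 kb of these starts were not counted, so this does not show that the promoters lacked RAD21.

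Other transcription factor genes among the sites were named after their values had been seen. Tcfap2a and Tcfap2c, which encode AP-2 factors of ectoderm and trophectoderm, had 17 and 1 reads and 19 and 4 reads in ESCs and EBs, with ratios of 0.104 (0.00249 to 0.665) and 0.373 (0.0923 to 1.12). Pou2f2 had 22 and 3 reads, a ratio of 0.242 (0.0463 to 0.804). Tcf7l1, whose product represses Wnt targets in ESCs, had 20 and 9 reads and 0 IgG reads in both cell types, a ratio of 0.797 (0.320 to 1.83). Cited2, Bhlhe40 and Socs3, a feedback inhibitor of LIF signalling, were listed in both cell types, with 16 and 18, 20 and 11, and 27 and 16 reads. Pdgfra, a receptor gene used as a marker of mesoderm and primitive endoderm, was listed in EBs only, with 7 reads in ESCs and 11 in EBs, a ratio of 2.78 (0.986 to 8.47). The imprinted Gnas locus had 17 reads in ESCs and 1 in EBs. Idh1 and Dnahc17 had 2 sites each, and the 2 sites of Dnahc17 differed in their listing, with 19 and 19 reads at the site listed in both and 19 and 8 at the one listed in ESCs only.

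CTCF motifs were less frequent at these summits than at distal ones, and more frequent than around the starts of GC-rich promoters without a listed site. At the threshold of 1e-05 a match lay within 150 bp of 23 of 167 summits (13.8%, 8.94 to 19.9), against 24.5% (21.2 to 28.0) of distal sites of at least 55% GC, 29.8% (29.1 to 30.5) of all distal sites and 15.6% (13.1 to 18.4) of GC-poor promoter sites. Around the starts of 12805 GC-rich promoters without a site it was 0.312% (0.223 to 0.425). This sets summits against starts, since the nearest starts of the RAD21 sites were not searched for the motif. At the threshold of 1e-04 the shares were 64.7% (56.9 to 71.9), 80.3%, 79.0%, 53.1% and 5.22%. At both thresholds the interval of the GC-rich promoter sites lay below those of both distal groups, and it overlapped that of the GC-poor promoter sites at the stricter threshold only.

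The intervals of the motif shares overlapped between the classes of sites. At 1e-05 the motif was present at 19.05% of sites listed in both (8.601 to 34.1), 13.0% of those in ESCs only (7.27 to 20.8) and 1 of the 17 in EBs only (5.88%, 0.149 to 28.7). At 1e-04 it was present at 71.4% of sites listed in both (55.4 to 84.3), 61.1% of those in ESCs only (51.3 to 70.3) and 70.6% of the 17 in EBs only (44.0 to 89.7). Among GC-poor promoter sites listed in EBs only it was 27.3% (22.3 to 32.9), below the interval for the GC-rich promoter sites of that class. Of the ESC sites with a match at 1e-04, 31.3% of 96 (22.2 to 41.5) were also listed in EBs, and of those without one 22.2% of 54 (12.0 to 35.6), whose intervals overlapped. With the motif read as printed above, from its CCA towards its GGC, the summit lay on the 3′ side of the motif at 15 of 23 sites (65.2%, 42.7 to 83.6) at 1e-05 and at 68 of 108 (63.0%, 53.1 to 72.1) at 1e-04. Distal sites had 80.3% and 79.5%, and the interval of the promoter sites excluded these values at the looser threshold only. Relative to the gene, the motif pointed along the direction of transcription at 10 of 23 sites (43.5%, 23.2 to 65.5) and 57 of 108 (52.8%, 42.9 to 62.5).

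Short words of known promoter factors were counted on either strand within 150 bp of the summit. GGGCGG, the GC box of Sp factors, was present at 66 of 167 sites (39.5%, 32.1 to 47.4), CCAAT, bound by NF-Y, at 44 (26.3%, 19.8 to 33.7), CCGGAAG, an ETS word, at 12 (7.19%, 3.77 to 12.2), and CACGTG, the E-box of Myc and USF, at 15 (8.98%, 5.12 to 14.4). The GC-rich promoters without a site held them within 150 bp of the start in 70.9%, 31.8%, 16.6% and 9.55%. Around the nearest starts of the RAD21 sites GGGCGG was present in 64.1% (56.3 to 71.3), CCAAT in 28.7% (22.0 to 36.2) and CCGGAAG in 11.4% (6.99 to 17.2). Since the GC content differed, the range of 55 to 60% GC was compared as well, where GGGCGG was at 33.8% of 133 sites (25.9 to 42.5) and 44.99% of promoters (43.4 to 46.6) and CCGGAAG at 6.02% (2.63 to 11.5) and 15.9% (14.7 to 17.1). The nearest starts of these 133 sites, whose own GC content was not limited to that range, held GGGCGG in 62.4% (53.6 to 70.7), above the share of the promoters. In that range CCAAT was at 26.3% (19.1 to 34.6) and 35.2% (33.6 to 36.7). The nearest starts of the 133 sites held CCGGAAG in 9.02% (4.75 to 15.2) and CCAAT in 27.8% (20.4 to 36.25). Both intervals overlapped those of the promoters, so counted at starts these words were not shown to differ. Distal sites of at least 55% GC held GGGCGG at 20.0%, CCAAT at 22.4% and CCGGAAG at 4.48%. TGACGTCA, AAGATGGC, ACTACAA and the palindrome of NRF1 were each at 4 sites or fewer, and TATAAA at 7 (4.19%, 1.70 to 8.45).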

How the data were processed

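RAD21-GFP and IgG ChIP-seq libraries of ESCs and EBs were grouped by the sample labels. The authors deposited aligned 35-base reads on mm9, 1 read per line, which were used as counts, and site lists that MACS called per cell type against the IgG reads, with a score (minus 10 times log10 p) per peak and a summit height, a signal of piled-up reads that is not scaled between libraries. The EB IgG reads ended within chromosome X and 7 lines of the ESC IgG reads were broken (1 in EB IgG), and autosomes only were used. The aligner is not given in the sources used here.

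Starts came from GENCODE vM1. Members, gene lists and named genes were chosen with earlier results of these data known. Named were the 5 sites with the most RAD21 RPM in ESCs, the 5 in EBs, the 5 with the highest lower limit of the ratio in each direction, and up to 5 sites of each gene list; the result of 1 list is not reported here. Slc39a13, the sixth solute carrier, and the transcription factor and other genes so marked in the text were named after their values were seen. The EB summits that met the rule where their ESC partner did not were 6 and were left out.

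Fragment lengths from strand cross-correlation were 207 bp (ESC) and 196 bp (EB). Read ratios carried exact conditional intervals, shares Clopper-Pearson intervals and medians order-statistic intervals at 95%. Counting, intervals and motif search were tested on simulated data. Calculations used Python with numpy 2.4.6 and scipy 1.17.1. Alternatives concerned distances, GC limit and window, starts, score, counting, scaling and motif threshold.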

Additional observations from a re-analysis of the deposited data

How the results depend on the processing

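No paired analysis was possible because each group held 1 library. Of 141 recomputed values of 17 results, 38 left their interval or moved a count by over 1.5 times and 2 changed sign. A limit of 50% gave 395 sites, 33.7% listed in both, 42.2% of ESC sites also in EBs, a median log2 ratio of EBs to ESCs of -0.056 and 2.53% of GC-rich genes with a site, and a limit of 60% gave 34 sites, 11.8%, 13.3%, 50.0% of EB sites also in ESCs, -0.73, a CTCF motif at 5.88% and 0.296% of genes. A distance of 500 bp or 2000 bp gave 0.887% and 1.55% of genes. A score of at least 100 left 56 sites and 84.2% of EB sites also in ESCs. Starts of all transcripts moved the median position to -107 bp. The start of the whole gene alone, without those of shorter transcripts, gave 136 sites. The median ratio of RAD21 to IgG per site, with 1 read added, was 6.74 in ESCs and 4.48 in EBs, and in ESCs it was 7.58 within 150 bp and 4.96 within 500 bp. A pseudocount of 0.1 read gave 9.22 in ESCs and 7.41 in EBs. Scaling to distal sites listed in both gave median log2 ratios of -0.77 for all sites, -0.17 for those in both (reversed), -1.15 for ESC-only and 0.56 for EB-only sites, with 4 sites higher and 65 lower. Dividing out the IgG ratio gave -0.62, -0.22 (reversed), -1.04 and 0.70. A scaling to GC-rich starts without a site, added after seeing the data, gave 11 sites higher and 35 lower. A fold of 1.5 gave 24 higher and 68 lower sites, a fold of 3 gave 1 and 18, and intervals excluding 1 gave 4 and 23. The shares of all sites were not computed under these alternative settings, so their counts of higher and lower sites have no background. Without chromosomes 6, 8 and 11, where 16 of 60 sites were lower, 22 of 107 sites were lower. The motif share was 64.7% at a rate of 1e-04 and 2.40% at 1e-06. The cause of these shifts was not tested beyond what each setting itself changes. Depth limits single sites: with medians of 19 and 8 RAD21 reads most intervals of single ratios span more than 3-fold.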
